A study of Mus musculus with 74 samples.

Results

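Ccnl1 and Ccnl2, which encode the paralogs cyclin L1 and cyclin L2, were 2 of the 17 genes targeted in a dual-guide screen of lung tumours in mice. Tumours were taken as cyclin L tumours where the gene name of either guide was Ccnl1 or Ccnl2. Left out were 59 tumours whose 2 guides were identical and 1166 with the guide named NE. This gave 21906 cyclin L tumours of the 378754 tumours listed: 7974 carried a Ccnl1 guide, 14176 a Ccnl2 guide, and 244 of these carried both. The comparison group was the 2973 tumours with an inert guide in both places (inert/inert), where inert means the guides named safe, NT or EGFP.

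All mice had the background called KT, which pairs the Cre-activated oncogenic allele KrasLSL-G12D with the Cre-activated reporter R26LSL-Tomato. Lentivirus carrying Cre, a tumour barcode and a guide pair was used to start the tumours, and lungs were harvested after about 3 months. The groups were 9 KT mice without Cas9, in which guides cannot cut, 45 mice with KT and H11-Cas9, and 20 mice with KT and H11-LSL-Cas9. The genotype labels separate H11-Cas9 from H11-LSL-Cas9, while the labels' growth protocol writes both alleles with LSL, the stop cassette that Cre removes. The sources used here give neither ages nor the viral dose, nor how often a guide cut. Each cyclin L gene had 1 guide, so the tumours with both guides came from 2 constructs, which differ in the order of the guides.

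Cyclins L1 and L2 are nuclear cyclins that bind the kinase CDK11. They are found with the splicing machinery in nuclear speckles, and the complexes are known for roles in transcription and pre-mRNA splicing rather than for driving a phase of the cell cycle. Paralogs of this kind can take over part of each other's work, so removing either of them can leave a cell with the function while removing both does not. A dual-guide library that holds each gene beside an inert guide and both genes together sets these states side by side in the same lungs.

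The number of tumours behind each value differed widely between groups. A KT mouse held 13191 to 41166 tumours of all genotypes, an H11-Cas9 mouse 1013 to 5364, and an H11-LSL-Cas9 mouse 4 to 4941. The smallest tumour listed had 50.1 cells, so smaller tumours are not seen here. The smallest one listed differed between mice, from 50.4 to 56.2 cells in KT and from 50.1 to 105 in H11-Cas9. In H11-LSL-Cas9 it ran from 50.4 to 369 cells. The mouse at 369 cells had 4 inert/inert tumours and was not used for number, while the next, at 155 cells, was. The authors' cell numbers rest on spike-in barcodes whose total in a mouse was close either to 100000 or to 300000 cells. The lower total held for 5 KT mice and 25 of H11-Cas9, the higher for 4 KT mice and for 20 mice of each Cas9 genotype. The names of the H11-LSL-Cas9 mice begin with letters that no other mouse has, so a batch marked by those letters cannot be told apart from that genotype. Near 100000 cells all KT names begin with SL and all H11-Cas9 names with LA, so the same holds there. Near 300000 cells names with LA occur in both of these groups.

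Neither cyclin L gene alone passed a test for a change in the number of tumours relative to inert/inert tumours. Number is given per inert/inert tumour of the same mouse, and KT mice give the share of each construct in the viral pool. Tumours with Ccnl1 beside an inert guide came to 30.3% to 46.7% of the inert/inert number in the 9 KT mice (median 37.1%). In the 45 H11-Cas9 mice they came to 18.2% to 100% (median 33.3%), and in the 17 H11-LSL-Cas9 mice with at least 5 inert/inert tumours to 8.33% to 55.6% (median 36.1%). The 3 ranges overlapped. Tumours with Ccnl2 beside an inert guide lay at a median of 72.3% in KT (50.7% to 84.2%), 64.7% in H11-Cas9 (25% to 160%) and 77.8% in H11-LSL-Cas9 (14.8% to 147%), again with overlapping ranges.

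On the log2 scale, with a pseudocount of 0.5 added to both numbers in each mouse, the H11-Cas9 mean differed from the KT mean by -0.09 ± 0.10 (SE, 45 against 9 mice) for Ccnl1 and by -0.11 ± 0.11 for Ccnl2. Neither passed a studentised permutation of the mouse labels (adjusted p = 0.417 and 0.372), in a comparison that called 76.5% of the 17 single genes. In H11-LSL-Cas9 the differences were -0.20 ± 0.18 and -0.07 ± 0.18 (17 against 9 mice, permutation test, adjusted p = 0.405 and 0.787), where 29.4% of the genes were called. Among the 17 genes in H11-Cas9, Ccnl2 and Ccnl1 held places 11 and 12 from the lowest. Their neighbours were Rnf43 (-0.15), a negative regulator of Wnt signalling, and Rb1 (-0.05), the cell cycle suppressor, and neither cyclin gene differed from these neighbours in a permutation test of the difference (adjusted p from 0.695 to 0.808). These calls depend on the scale: relative to all tumours of the mouse, among which the inert/inert share itself was higher by 0.43 (log2) in H11-Cas9 than in KT, Ccnl1 lay at 0.34 and Ccnl2 at 0.32 (permutation test, adjusted p = 0.00467 and 0.00532), and the median of the 17 genes moved from -0.17 to 0.26.

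Tumours with both cyclin guides were few in H11-Cas9 mice. The 9 KT mice held 9, 12, 13, 14, 20, 22, 29, 29 and 34 such tumours, 182 in all. The 45 H11-Cas9 mice held 28 in all: 24 mice had 0, 15 mice had 1, 5 mice had 2 and 1 mouse had 3. Per inert/inert tumour this was 9.02% to 17.2% in KT mice and 0 to 14.3% in H11-Cas9 mice (median 0), and 42 of the 45 H11-Cas9 mice lay below the lowest KT mouse.

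Summed over mice, the doubly targeted tumours made 12.4% of the inert/inert number in KT (182 to 1466) and 2.53% in H11-Cas9 (28 to 1107). At the KT ratio, 137 tumours would correspond to 28 seen. The ratio of these shares was 0.204 (95% jackknife interval over mice 0.139 to 0.298). In the per-mouse fit the log2 difference from KT was -1.71 ± 0.19 (SE, 45 against 9 mice, studentised permutation, adjusted p = 5.04e-05 over the 136 gene pairs), a comparison in which 57.4% of the pairs were called lower. The pseudocount pulls mice with 0 tumours toward the KT level, so this value is smaller than the summed one of -2.30 ± 0.28, and a pseudocount of 1 gave -1.07 (permutation test, adjusted p = 0.000115). With the KT tumours thinned to the H11-Cas9 number before the fit, the difference was -1.76 (median of 20 draws, permutation test, adjusted p = 0.000752).

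**Figure D1:**
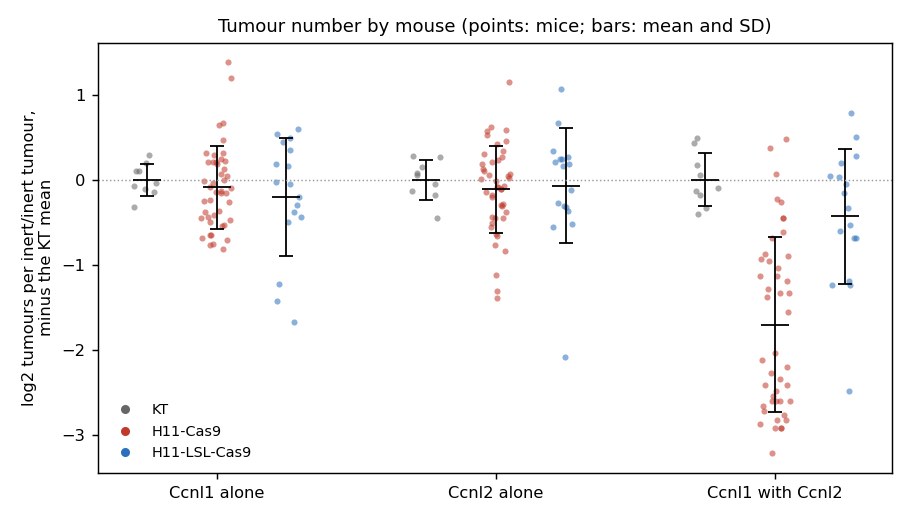
Number of tumours with Ccnl1 beside inert, Ccnl2 beside inert and both guides, as log2 of tumours per inert/inert tumour in each mouse minus the KT mean, so that KT is centred on 0 (9, 45 and 17 mice in the order plotted; bars are mean and SD). The single genes overlap KT in all 3 groups, while the H11-Cas9 mice lie at a mean of -1.71 for both guides together.

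The deficit appeared in both constructs and at both spike-in totals. With Ccnl1 in place 1 and Ccnl2 in place 2, 22 tumours in H11-Cas9 stood against 100 in KT, a ratio of 0.291 (95% interval 0.192 to 0.442) after division by inert/inert. With Ccnl2 in place 1, 6 stood against 82, a ratio of 0.0969 (0.0434 to 0.216). The ratio was thus 3.01 times higher with Ccnl1 first (1.25 to 7.22), a difference noticed in these data and not tested by permutation. Within mice of 1 spike-in total, both guides together made 2.06% of the inert/inert number against 12.3% in KT near 100000 cells, and 3.05% against 12.5% near 300000 cells. The fitted differences there were -1.76 and -1.63 (permutation test, adjusted p = 0.00333 and 0.0096). Near 100000 cells the name letters also separate H11-Cas9 from KT.

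Leaving out small tumours did not remove the deficit. Among tumours of at least 200 cells, 8 with both guides were left in H11-Cas9 and 108 in KT, a ratio of 0.137 (0.0678 to 0.278). Among tumours of at least 1000 cells, 3 were left against 31, a ratio of 0.392 with an interval that includes 1 (0.0944 to 1.63), so at that size a difference was not detectable at this depth. With the safe guides alone as inert, the fitted difference was -1.78 (permutation test, adjusted p = 2.89e-05).

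**Figure D2:**
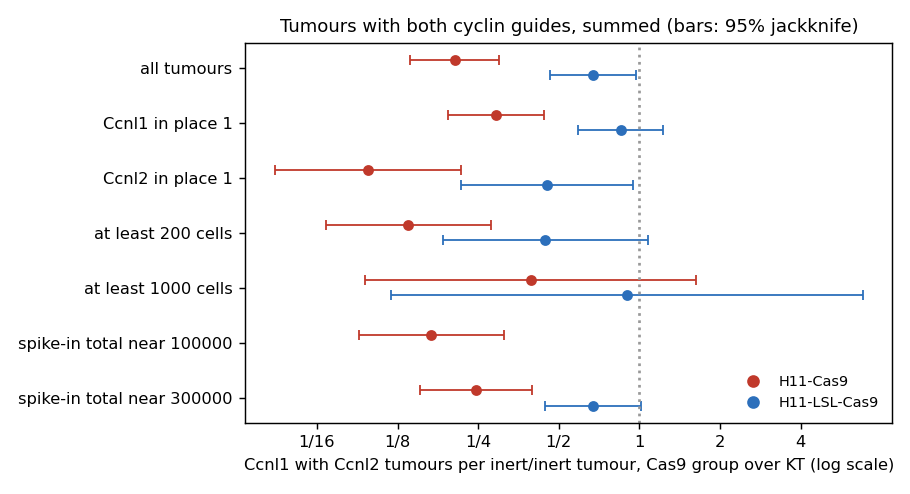
Tumours with both cyclin guides per inert/inert tumour, as the ratio of a Cas9 group to KT on a log scale, summed over mice, for all tumours and for subsets by guide order, minimum size and spike-in total (bars are 95% jackknife intervals over mice). In H11-Cas9 the ratio is 0.204 for all tumours and lies below 1 with its interval in each subset but that of at least 1000 cells.

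The number of doubly targeted tumours was below what the single genes give together. The number interaction is the log2 effect of the pair minus the sum of the effects of its single genes, here taken in each mouse and compared with KT. For Ccnl1 with Ccnl2 it was -1.50 ± 0.22 in H11-Cas9 (SE, 45 against 9 mice, studentised permutation p = 1e-05, a value that 100000 permutations cannot go below and so the smallest they can give, adjusted p = 0.000227). The mean over mice was -2.61 in H11-Cas9 and -1.11 in KT without Cas9, the level set by the make-up of the pool. It was the lowest of the 136 pairs and the sole pair called lower, which is 0.735% of the pairs, while 11.8% were called higher.

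Summed over mice the interaction was -2.08 ± 0.30 (jackknife SE), which puts the doubly targeted number at 0.237 of the product of the single ratios (0.158 to 0.355). The median of the 136 pairs was 0.08, and the next lowest pair, Nf1 with Pcna, lay at -0.55. With the safe guides alone as inert the interaction was -1.42 (permutation test, adjusted p = 0.000907). With the KT tumours thinned to the H11-Cas9 number it was -1.46 (median of 20 draws, permutation test, adjusted p = 0.0237). It was called in 11 of the 20 draws. Within mice near a total of 100000 cells the interaction was -1.61 (25 against 5 mice, permutation test, adjusted p = 0.0239). The name letters also separate both groups there. Near 300000 cells the interaction was -1.37 (20 against 4 mice, permutation p = 0.00836), which did not pass after adjustment (adjusted p = 0.162).

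Each added cyclin guide gave a lower number on the background of the other. Adding the Ccnl2 guide to Ccnl1 tumours moved the number by -1.62 ± 0.19 and adding the Ccnl1 guide to Ccnl2 tumours by -1.59 ± 0.21 (45 against 9 mice, studentised permutation, adjusted p = 5.67e-05 and 0.000148 over all 272 such steps in the library). Of those steps 33.8% were called lower. For scale, Pcna, the sliding clamp that DNA polymerases need, changed the number by -4.16 ± 0.14 when targeted beside an inert guide (permutation test, adjusted p = 3.4e-05). The fit lets a rare pair fall less far, and KT held 4256 tumours of Pcna beside inert against 182 of the cyclin pair. Summed over mice, Pcna beside inert lay at -4.08 ± 0.17, a larger fall than the -2.30 ± 0.28 of the cyclin pair.

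**Figure D3:**
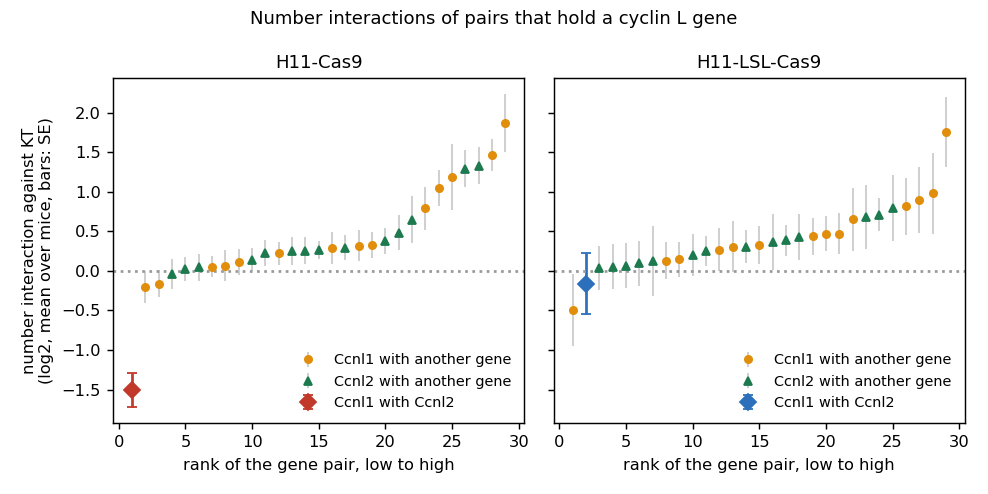
Number interactions against KT of the 29 pairs with a cyclin L gene that are reported, ranked from low to high in H11-Cas9 (left) and H11-LSL-Cas9 (right), as the mean over mice with its SE on a log2 scale. Ccnl1 with Ccnl2 (diamond) lies at -1.50 in H11-Cas9, apart from the pairs of a cyclin L gene with another gene, and at -0.16 in H11-LSL-Cas9, inside their range of fitted means.

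The deficit was not called in H11-LSL-Cas9 mice. Of the 20 mice, 4 held 0 tumours with both guides, 7 held 1, 5 held 2, 2 held 3, 1 held 5 and 1 held 6. Over the 17 mice with at least 5 inert/inert tumours, 33 such tumours stood against 396 inert/inert (8.33%). The ratio to KT was 0.671, with an interval just below 1 (0.465 to 0.968), and 7 of the 17 mice lay at or above the lowest KT mouse. The fitted difference was -0.43 ± 0.22 (17 against 9 mice, permutation test, adjusted p = 0.125, where 27.9% of pairs were called lower), and the interaction was -0.16 ± 0.39 (adjusted p = 0.949, permutation test, 0 of 136 pairs called and 13 at an unadjusted p under 0.05). Summed over mice the interaction was -0.36 ± 0.33 (jackknife SE), place 5 from the lowest of the 136 pairs. As a ratio this was 0.780, with an interval that includes 1 (0.498 to 1.22). It lay below every pair of a cyclin L gene with another reported gene, the nearest being Ccnl1 with Rb1 at -0.31 ± 0.40.

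The difference between both Cas9 groups was tested directly. The number of tumours with both guides was lower in H11-Cas9 than in H11-LSL-Cas9 by a log2 difference of -1.27 ± 0.25 (45 against 17 mice, permutation test, adjusted p = 0.000163), a comparison that called 44.1% of the pairs lower. Among tumours of at least 200 cells it was -0.50 and did not pass (adjusted p = 0.22), and with the 5 H11-LSL-Cas9 mice whose names begin with MT alone it was -1.41 (adjusted p = 0.107, permutation tests). The interaction differed by -1.35 ± 0.41 and did not pass after adjustment (permutation p = 0.00231, adjusted p = 0.0628, where 1.47% of pairs were called). Pcna beside an inert guide differed between the groups in the same direction, with -1.70 in H11-LSL-Cas9 against -4.16. Whether the amount or timing of cutting plays a part was not tested.

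The sizes of the doubly targeted tumours that were left did not differ detectably from inert/inert tumours. No H11-Cas9 mouse and 2 H11-LSL-Cas9 mice had at least 5 such tumours, so the size was taken over the mice with at least 1, weighted by their tumours. In KT the mean log2 cells differed by 0.01 ± 0.15 from inert/inert (9 mice, 182 tumours). In H11-Cas9 the difference was -0.04 ± 0.29 (21 mice, 28 tumours, sign-flip permutation, unadjusted p = 0.906) and in H11-LSL-Cas9 -0.30 ± 0.32 (16 mice, 34 tumours, exact sign-flip permutation, unadjusted p = 0.388). The median tumour with both guides held 136 cells in H11-Cas9 against 139 for H11-LSL-Cas9, next to 164 in inert/inert tumours of either group, and the largest held 7773 cells. The size interaction was -0.37 ± 0.26 in H11-Cas9 (sign-flip permutation, adjusted p = 0.378). It was -0.83 ± 0.28 where the largest tumours of each genotype were taken in proportion to its KT number (adjusted p = 0.0396, sign-flip permutation), a choice under which a missing share of tumours lowers the mean by construction. With these errors a difference of the size seen for the single genes was not detectable.

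Tumours with a single cyclin guide were slightly larger than inert/inert tumours in H11-Cas9 mice. The Ccnl1 difference in mean log2 cells ran from -0.89 to 1.21 over 43 mice with a median of 0.32, and 31 of the mice lay above 0. Its mean was 0.27 ± 0.08, which is 1.21-fold (sign-flip permutation, adjusted p = 0.00561). The Ccnl2 difference ran from -0.75 to 2.09 over 44 mice, with 29 above 0 and a mean of 0.17 ± 0.07, which is 1.13-fold (sign-flip permutation, adjusted p = 0.0367). This comparison called 64.7% of the 17 genes higher, so such a rise was common in the library. In KT mice the Ccnl1 difference was -0.41 to 0.69 (median -0.02) and the Ccnl2 difference -0.41 to 0.36 (median -0.07), and the groups overlapped.

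Set against the KT mice instead of 0, neither rise passed. The difference was 0.27 ± 0.14 for Ccnl1 and 0.13 ± 0.12 for Ccnl2 (43 and 44 against 9 mice, studentised permutation, adjusted p = 0.176 and 0.399), where 23.5% of genes were called higher. With the safe guides alone as inert they did not pass either, at 0.25 and 0.07 (sign-flip permutation, adjusted p = 0.0705 and 0.43). Taking the largest tumours of each genotype in proportion to its KT number gave 0.06 and 0.02, and mice near a spike-in total of 300000 cells gave 0.23 and 0.06, none of which passed (sign-flip permutation, adjusted p from 0.232 to 0.898). Without any 1 of 9 H11-Cas9 mice (replicates 11, 15, 17, 21, 23, 29, 33, 37 and 38) Ccnl2 no longer passed, with values of 0.13 to 0.16 and adjusted p up to 0.0677 (sign-flip permutation). In H11-LSL-Cas9 the means were 0.02 ± 0.09 (13 mice) and 0.00 ± 0.10 (16 mice), neither of which passed (exact sign-flip permutation, adjusted p = 0.897 and 0.983, 5.88% of genes called higher). The H11-Cas9 and H11-LSL-Cas9 means differed by 0.25 ± 0.12 for Ccnl1 and 0.17 ± 0.13 for Ccnl2 (permutation test, adjusted p = 0.118 and 0.277, where 17.6% of genes were called).

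**Figure D4:**
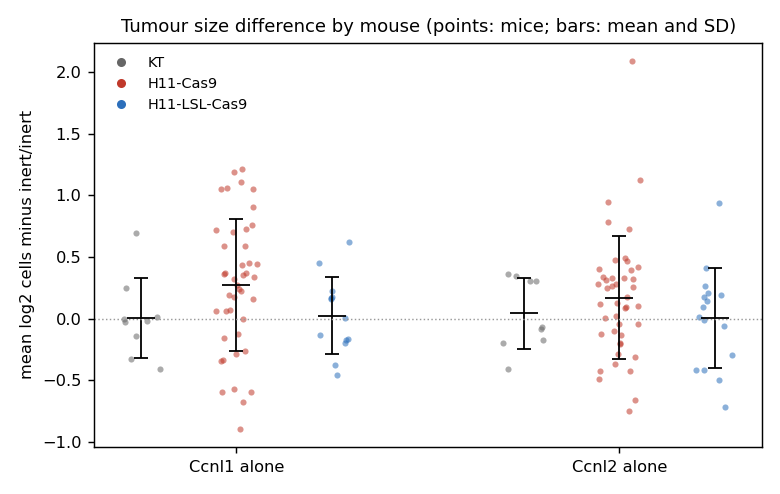
Mean log2 cells of tumours with Ccnl1 or Ccnl2 beside an inert guide minus that of inert/inert tumours, for each mouse with at least 5 tumours of each kind (points; bars are mean and SD). The H11-Cas9 means of 0.27 and 0.17 lie within the spread of the KT mice.

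Large tumours were more frequent with Ccnl1 than with inert guides in H11-Cas9. Of 391 Ccnl1 tumours, 36 held at least 1000 cells (9.21%), against 62 of 1107 inert/inert tumours (5.60%), a ratio of 1.64 (95% jackknife interval 1.13 to 2.40). These 36 tumours came from 25 mice, with at most 3 in any mouse. Of at least 5000 cells there were 9 Ccnl1 tumours in 8 mice and 8 inert/inert tumours in 7 mice (2.30% and 0.723%, ratio 3.19, 1.21 to 8.38). The largest Ccnl1 tumour held 283642 cells and the next 22514, while the largest inert/inert tumour there held 9625. These ratios were not tested and were not set beside those of other genes, so they do not show a trait particular to Ccnl1. In mean size, 64.7% of the 17 genes were called higher than inert/inert in this group.

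For Ccnl2, and for either gene in the other groups, the interval at 1000 cells included 1. For Ccnl2 in H11-Cas9 the ratio at 1000 cells was 1.20 (0.838 to 1.72). In KT it was 0.866 for Ccnl1 (0.634 to 1.18) and 1.04 for Ccnl2 (0.919 to 1.19), and in H11-LSL-Cas9 1.18 for Ccnl1 (0.551 to 2.52) and 1.11 for Ccnl2 (0.463 to 2.67). Intervals for Ccnl1 and Ccnl2 overlapped in H11-Cas9, and the difference between them was not tested.

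Ccnl1 and Ccnl2 did not differ from each other in size or number in any group tested. Ccnl1 minus Ccnl2 was 0.11 ± 0.09 in size in H11-Cas9 (43 mice, sign-flip permutation p = 0.263, 26 mice above 0) and 0.03 ± 0.14 in number (45 against 9 mice, permutation p = 0.845). Over the 5 comparisons made, adjusted p was 0.898 throughout. Among the 17 single genes in H11-Cas9, Ccnl1 held place 14 by size, between Lkb1 (0.27), the kinase also called Stk11, and p53 (0.29). Ccnl2 held place 8, between the Wnt suppressor Apc (0.16) and Kat7 (0.21), an acetyltransferase. None of these neighbours differed from the cyclin gene beside it (adjusted p from 0.885 to 0.909, sign-flip permutation). Ccnl2 tumours were smaller than Nf1 tumours by 0.27 ± 0.07 (44 mice, adjusted p = 0.0068).

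In number the cyclins differed from the genes at both ends of the library. Each lay above 7 of the 16 other genes, among them Pcna, Lkb1 and Keap1, and below 4, among them Nf1, p53 and Rasa1 (permutation tests, adjusted over the 16 genes). The place of a guide on the construct made no called difference beside inert guides. For Ccnl1 in H11-Cas9, 265 tumours had the guide in place 1 and 126 in place 2, against 384 and 189 in KT (difference in log2 ratio 0.15 ± 0.26, adjusted p = 0.714, permutation test). For Ccnl2 it was 407 and 321 against 564 and 449 (0.00 ± 0.14, adjusted p = 0.977), where 29.4% of genes were called.

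Beside 14 other genes of the library, so in 28 pairs, the number of cyclin L tumours was lower with some partners and higher with others. In H11-Cas9, 9 of the 28 were called lower and 5 higher than in KT, where 72.1% of all 136 pairs were called. The lower calls for both cyclins were with Pcna, Lkb1, Keap1, the inhibitor of NRF2, and Apc, and Ccnl2 was also lower with Kmt2b, a histone methyltransferase. The higher calls for both were with Nf1, a negative regulator of RAS, and with Meaf6, a subunit of acetyltransferase complexes, and Ccnl1 was also higher with the methyltransferase Kmt2a. The calls with Meaf6 rest on 7 tumours for Ccnl1 and 18 for Ccnl2 in H11-Cas9. Their sums over mice did not show a rise, at -0.595 ± 0.758 and -0.125 ± 0.368.

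The sums over mice set each cyclin pair beside its partner with an inert guide. Pcna lay at -4.08 beside inert, -3.87 beside Ccnl1 (15 tumours against 290 in KT) and -3.23 beside Ccnl2 (47 against 586). Lkb1 lay at -1.17, -1.03 and -1.10, and Keap1 at -0.97, -0.79 and -0.96. Nf1 lay at 0.44, 0.41 and 0.57, so that Ccnl2 with Nf1 made 48.7% of the inert/inert number in H11-Cas9 (539 tumours) against 32.7% in KT. Kmt2b lay at -1.05 beside inert, -0.87 beside Ccnl1 and -1.55 beside Ccnl2, Kmt2a at -0.13, 0.37 and 0.16, and Kat7 at -0.55, -0.28 and -0.11. The RAS regulator Rasa1 (0.19 beside inert, 0.25 and 0.19), p53 (0.24, -0.01 and 0.14) and Rb1 (-0.04, -0.29 and -0.11) did not pass in the fit with either cyclin gene.

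In the fit, adding a cyclin guide to tumours with another gene raised the number where a change was called in H11-Cas9. Adding Ccnl1 passed with 5 of 14 partners, all higher, at 1.78 ± 0.37 with Meaf6, 1.38 ± 0.17 with Pcna, 1.10 ± 0.38 with Kat7, 0.96 ± 0.22 with Kmt2b and 0.71 ± 0.24 with Kmt2a (45 against 9 mice, permutation test, adjusted p from 5.67e-05 to 0.0293). Adding Ccnl2 passed with 2 of 14, both higher, at 1.22 ± 0.19 with Pcna and 1.18 ± 0.23 with Meaf6 (permutation test, adjusted p = 0.000219 and 0.000861). Of all steps in the library 22.8% were called higher. The medians over 14 partners were 0.22 for adding Ccnl1 and 0.15 for adding Ccnl2, against -0.07 over all 272 steps. For each called step the sums over mice gave a smaller rise or none. Meaf6 lay at -0.562 beside inert, -0.595 beside Ccnl1 and -0.125 beside Ccnl2. Pcna lay at -4.08, -3.87 and -3.23. Beside inert and Ccnl1, Kat7 lay at -0.55 and -0.28, Kmt2b at -1.05 and -0.87, and Kmt2a at -0.13 and 0.37.

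For rare pairs the fit and the sums could differ in sign, since the pseudocount weighs more in mice with few tumours. Ccnl1 with Meaf6 was fitted at 1.20 ± 0.41 (adjusted p = 0.00811, permutation test), but 7 tumours in H11-Cas9 against 14 in KT summed to -0.595 ± 0.758, the opposite sign. Ccnl2 with Meaf6 was fitted at 0.60 ± 0.22 and summed to -0.125 ± 0.368. With the KT tumours thinned to the H11-Cas9 number, 6 of the 14 calls were kept by the median adjusted p of 20 draws, those with Pcna, Lkb1 and Keap1, all lower, and 0 of 28 pairs were called higher. Both pairs with Pcna and Ccnl2 with Keap1 were called in all 20 draws. Ccnl2 with Lkb1 was called in 19, Ccnl1 with Lkb1 in 16 and Ccnl1 with Keap1 in 11. Ccnl2 with Nf1 then lay at 0.57 (permutation test, adjusted p = 0.0515).

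**Figure D5:**
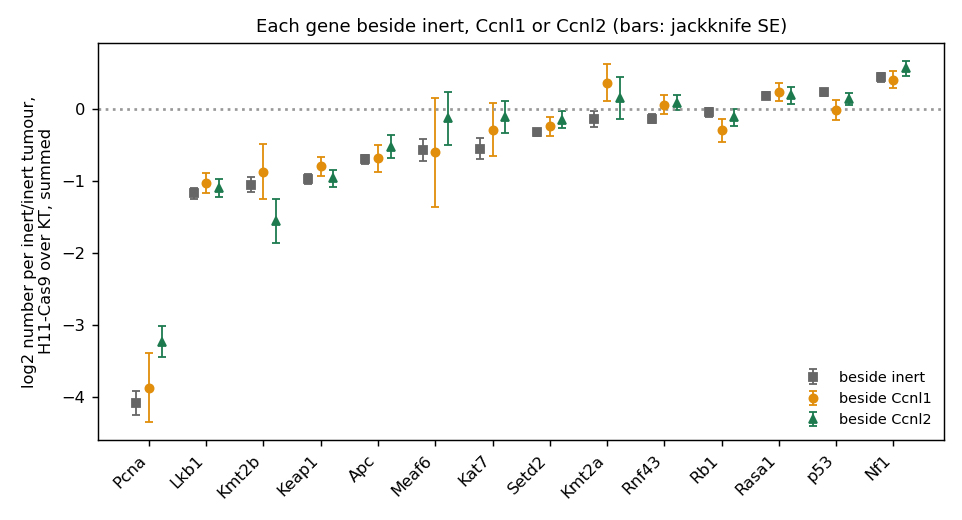
Number of tumours with each of 14 genes beside an inert guide, Ccnl1 or Ccnl2 in H11-Cas9, as the log2 ratio to KT per inert/inert tumour, summed over mice (bars are jackknife SE), ordered by the value beside inert. Pcna lies at -4.08 beside inert, -3.87 beside Ccnl1 and -3.23 beside Ccnl2, and Nf1 stays above 0 in each setting.

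Number interactions of the cyclins with other genes lay mostly above 0. Their median over the 28 pairs was 0.28 in the fit and 0.24 in the sums, against medians of 0.09 and 0.08 over all 136 pairs. Of the 28, 5 were called, all higher (Ccnl1 with Kmt2b, Pcna and Meaf6, Ccnl2 with Pcna and Meaf6), where 11.8% of all pairs were called higher. With thinned KT tumours the 2 calls with Pcna were kept by the median of 20 draws, at 1.31 and 1.36 (permutation test, adjusted p = 0.0107 and 0.0169). Ccnl1 with Pcna was called in 15 of the draws and Ccnl2 with Pcna in 19. Thinning left the H11-Cas9 numbers as they were, with 15 tumours of Ccnl1 with Pcna over 45 mice. The pseudocount thus still set the value of mice with 0, and thinning cannot remove that. Summed, Ccnl2 with Pcna gave 0.92 ± 0.25 and Ccnl1 with Pcna 0.36 ± 0.51. The spread of the latter covers 0. The sums were 0.32 ± 0.41 for Ccnl1 with Kmt2b, 0.11 ± 0.75 for Ccnl1 with Meaf6 and 0.51 ± 0.36 for Ccnl2 with Meaf6. The lowest of the 28 in the fit was Ccnl1 with Rb1 at -0.20 ± 0.20 (adjusted p = 0.659), far from the -1.50 of the cyclin pair.

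In H11-LSL-Cas9, 3 of the 28 pairs were called higher in number and 3 lower, where 40.4% of all pairs were called. Ccnl1 with Nf1 (0.47 ± 0.17) and Ccnl2 with Nf1 (0.42 ± 0.15) were again higher, and both cyclins with Pcna were lower (-1.25 ± 0.30 and -1.40 ± 0.21, permutation tests, adjusted p = 0.00174 and 0.00017). Ccnl1 with Rb1 was also lower, at -0.94 ± 0.31 (adjusted p = 0.0233). Ccnl1 with Meaf6 was called higher on 5 tumours. With thinned KT tumours the 2 calls with Pcna were kept, while Ccnl1 with Rb1 (adjusted p = 0.112), Nf1 with Ccnl1 (0.271) and with Ccnl2 (0.234), and Ccnl1 with Meaf6 (0.556) no longer passed (permutation tests, medians of 20 draws). Ccnl1 with Pcna was called in 16 of the draws and Ccnl2 with Pcna in 19. None of the 28 number interactions passed there (0 called by the permutation test, 5 at an unadjusted p under 0.05).

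Sizes beside other genes could be tested for 18 of the 28 pairs in H11-Cas9, since the others had too few tumours in a mouse. Ccnl2 with Nf1 (0.34 ± 0.09, 43 mice) and Ccnl2 with Rasa1 (0.39 ± 0.08, 37 mice) were larger than inert/inert tumours (sign-flip permutation, adjusted p = 0.00127 and 0.000142), where 37.5% of pairs were called. Against KT mice Ccnl2 with Rasa1 passed at 0.43 ± 0.13 and Ccnl2 with Nf1 did not at 0.36 ± 0.14 (permutation test, adjusted p = 0.0201 and 0.0728), where 25% of pairs were called. The largest value for Ccnl1, with Rb1, was 0.37 ± 0.20 and did not pass (13 mice, adjusted p = 0.155). The median over the 9 pairs tested was 0.18 for Ccnl1 and 0.14 for Ccnl2, against 0.19 for all 104 pairs tested. The lowest values were those of Ccnl1 with Apc (-0.37 ± 0.15, 4 mice) and Ccnl2 with Keap1 (-0.17 ± 0.10, 22 mice), and neither passed. In H11-LSL-Cas9, 0 of the 20 pairs tested passed in size (sign-flip permutation, 2 at an unadjusted p under 0.05), where 3.85% of pairs were called.

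Size interactions of the cyclins were below 0 where they were called. These were Ccnl1 with Nf1 (-0.52), Ccnl1 with p53 (-0.47), Ccnl2 with Setd2 (-0.39 ± 0.12, 38 mice) and Ccnl2 with p53 (-0.31 ± 0.11, 44 mice), the last 2 with adjusted p = 0.0124 and 0.0338 (sign-flip permutation). Setd2 is the methyltransferase that marks transcribed gene bodies. Negative calls were common in the library, at 24.2% of the 99 pairs tested. Against KT 0 of the 18 passed (permutation tests, 2 at an unadjusted p under 0.05, 2.02% of the library's pairs called), and with the safe guides alone as inert 0 passed. Adding a cyclin guide to tumours with another gene, or another gene to cyclin tumours, passed the test on size in 0 of the 18 steps of either kind in H11-Cas9, where 12.8% of the steps of the library were called. In H11-LSL-Cas9, 0 of 19 size interactions passed (sign-flip permutation, 1 at an unadjusted p under 0.05), and 0 of the 102 tested in the library did.

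Over shared partner genes in H11-Cas9, the profile of pair numbers of Ccnl1 was most like that of Ccnl2 (Spearman's rho 0.875 over 15 partners), then those of Kmt2b (0.825) and Kmt2a (0.779). For Ccnl2, Lkb1 followed at 0.682 among the genes reported. In pair size, Ccnl1 was most like Kat7 (0.883), p53 (0.767) and Apc (0.733) over 9 partners, and Ccnl2 most like p53 (0.750), Kat7 (0.717) and Rasa1 (0.683). Ccnl1 and Ccnl2 were less alike there (0.515 over 10 partners). Of 15 genes, Ccnl2 held place 4 for Ccnl1, and Ccnl1 held place 7 for Ccnl2. These profiles share the inert/inert tumours and the partner genes, so the likeness is a description of these mice.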

How the data were processed

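The deposited table lists every tumour of 74 lungs by mouse, both guides, reads and cells. The deposited read column holds counts per tumour barcode, without normalization, and the cell column holds a signal, the cells that the authors estimated from spike-in barcodes; in each mouse a single factor turned reads into cells, as checked on the deposited values. Per the labels' protocols, 32 µg of DNA per lung went into the amplification of the barcode with its guides. The sources used here do not give the barcode calling or its filters.

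Groups came from the genotype labels and mice were the replicates. A size effect was a genotype's mean log2 cells less that of inert/inert, in mice holding 5 or more tumours of both, tested by sign flips over mice, exact up to 16 mice and otherwise 100000 resamples. Number effects (pseudocount 0.5, mice with at least 5 inert/inert tumours) were Cas9 minus KT, tested by 100000 studentised permutations of mouse labels. P-values were Benjamini-Hochberg adjusted over the 17 genes or all pairs tested, with calls under 0.05. Summed ratios have jackknife errors over mice and no test. Where all mice were weighted by tumours, the p is from sign flips. Intervals and errors cover the mice at hand. The members, gene lists and tests were chosen with earlier results of these data known. Genes named were the cyclin pair, the called partner pairs, the extremes of each measure, the neighbours in rank and the 3 most alike. Alternatives covered size minimum, inert guides, same-guide constructs, spike-in total, mouse names, pseudocount, scaling, sampling and leaving out mice; thinning KT tumours, subsets of H11-LSL-Cas9 mice by name, guide order and number steps were added after the data were seen. Some results are not reported here. Methods were tested on simulated data. The software was numpy 2.4.6 and pandas 2.3.3 under Python 3.11.15.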

Additional observations from a re-analysis of the deposited data

Results flagged for a closer look

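For 8 pairs with a cyclin L gene the change in tumour number differed between H11-Cas9 and H11-LSL-Cas9 mice in a direct permutation test, each of them lower in H11-Cas9. For Ccnl1 with Ccnl2 the log2 difference was -1.27. With Pcna it was -1.54 for Ccnl1 and -1.55 for Ccnl2, with Lkb1 -0.63 and -0.79, with Keap1 -0.56 and -0.71, and for Apc with Ccnl2 -0.98. In this comparison 44.1% of all 136 pairs were called lower, and mouse names separate both groups. No KT mouse stood apart from the others in the 8 cyclin L measures examined.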

How the results depend on the processing

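Of 244 results recomputed with another choice, leaving single mice aside, 173 kept their direction, their side of the threshold or a count within 1.5 times. The number of tumours with both cyclin guides in H11-Cas9 kept its direction and its call in every alternative with a test, and its interaction did so except near a spike-in total of 300000 cells (-1.37, adjusted p = 0.162, permutation test). The H11-LSL-Cas9 values rest on 17 mice, and at 1000 cells 3 tumours with both guides were left in H11-Cas9. The cause of each change below was not tested.

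The number interaction in H11-LSL-Cas9 turned to 0.31 among tumours of at least 200 cells, 0.02 with the safe guides alone and 0.05 with a pseudocount of 1. The difference between both Cas9 groups in the number with both guides was -0.50 among tumours of at least 200 cells and -1.41 with the mice named MT, without passing, and that in the interaction passed at -1.35 when plain means were permuted. Relative to all tumours of the mouse the single-gene numbers turned to 0.34 (Ccnl1) and 0.32 (Ccnl2) in H11-Cas9 and to 0.13 (Ccnl2) in H11-LSL-Cas9.

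The single-gene sizes in H11-Cas9 no longer passed for Ccnl1 and Ccnl2 among tumours of at least 200 cells (0.31 and 0.04), with the safe guides alone (0.25 and 0.07), near 300000 cells (0.23 and 0.06), with at least 10 tumours of each kind (0.17 and 0.12), with the largest tumours in proportion to the KT number (0.06 and 0.02) or against KT (0.27 and 0.13). In H11-LSL-Cas9, Ccnl1 turned to -0.09 with at least 10 tumours, -0.06 with all mice weighted and -0.28 with the largest tumours in proportion, and Ccnl2 to -0.02 with the safe guides, -0.0049 with all mice weighted and -0.04 against KT. The size of tumours with both guides in H11-Cas9 turned to 0.55 and 0.75 among tumours of at least 200 and 1000 cells, 0.02 with same-guide constructs kept, 0.08 near 300000 cells and 0.02 in the mice named LA, and in H11-LSL-Cas9 to 0.20 among tumours of at least 200 cells and 0.28 with NT and EGFP as inert. Its size interaction in H11-Cas9 was 0.32 among tumours of at least 200 cells, 0.21 with NT and EGFP as inert and -0.83, now passing, with the largest tumours in proportion.

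Counts of cyclin pairs with another gene called in H11-Cas9 moved most. For number, 14 became 8 near 100000 cells, 7 near 300000 cells, 9 in the mice named LA, 9 with plain means and 7 (median of draws) with thinned KT tumours. For the number interaction, 5 became 8 at 200 cells, 0 near 300000 cells, 11 with a pseudocount of 1, 3 with plain means and 2 with thinned KT tumours. For size, 2 became 4 with same-guide constructs kept, 4 with the largest tumours in proportion and 1 against KT. For the size interaction, 4 became 8 with same-guide constructs, 7 in the mice named LA, 2 near 100000 cells, 1 with all mice weighted, and 0 at 200 cells, near 300000 cells, with the safe guides, with at least 10 tumours, with the largest tumours in proportion and against KT. In H11-LSL-Cas9 the number count of 6 became 3 near 300000 cells, 11 with a pseudocount of 1, 3 with plain means, 12 relative to all tumours, and 2 with thinned KT tumours or the mice named MT. The interaction count of 0 became 8 at 200 cells, 4 with a pseudocount of 1, and 1 with the safe guides or the mice named MT.

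Leaving out 1 mouse at a time, the number of tumours with both guides lay between -1.76 and -1.64 in H11-Cas9 and its interaction between -1.58 and -1.43. In H11-LSL-Cas9 the interaction count ranged from 0 to 2, and in H11-Cas9 the size count from 2 to 4. The difference between Cas9 groups in the interaction ranged from -1.49 to -1.13, passing without 3 of the 65 mice in turn. The Ccnl2 number in H11-LSL-Cas9 ranged from -0.14 to 0.06, the size of tumours with both guides in H11-Cas9 from -0.22 to 0.04, and the single-gene sizes from 0.12 to 0.19 for Ccnl2 in H11-Cas9, from -0.03 to 0.06 for Ccnl1 and from -0.06 to 0.05 for Ccnl2 in H11-LSL-Cas9. No paired analysis was possible because the labels give no replicate numbers.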
